A study of Mus musculus with 4 samples.

Results

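Chemokines are small secreted proteins that draw leukocytes along a gradient by binding G protein-coupled receptors. The set described here holds 10 mouse chemokine genes that a resident lung macrophage could make, out of 11827 genes listed in the deposited tables. They were picked by name (Cxcl16, Pf4, Ccl2, Ccl3, Ccl4, Ccl6, Ccl9, Ccl17, Cxcl1 and Cxcl2) with earlier results of these data known, so their values in the comparison of the study are given as a description and carry no test of their own. Of the 10 genes, 9 are listed, 5 have a count in at least 1 library (Ccl6, Cxcl16, Ccl9, Pf4 and Ccl3), and 4 are listed at 0 in every library (Ccl2, Ccl4, Cxcl1 and Cxcl2). Ccl17 has no listed tag and was not analysed here.

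The assay was SAGE (serial analysis of gene expression), in which a short tag next to an NlaIII site stands for one transcript. The RNA came from alveolar macrophages of wild-type BALB/c mice. One group of mice had been injected into a vein with BNL, a mouse hepatocellular carcinoma line, 21 days earlier and had lung metastases (day 21 metastasis, 2 libraries). The other group was untreated and had no metastases (2 libraries), and no sham injection is mentioned, so effects of injecting cells and of metastasis cannot be told apart. The labels do not say how the macrophages were purified or whether libraries that share a group are from different mice, so the spread between libraries may be technical. Total counts ran from 1630776 to 2198563 per library. Levels are given in CPM of a TMM-scaled library (counts scaled to an equal library total). Since each transcript gives a tag rather than fragments along its length, CPM of different genes were compared without a length correction. No correction was made for sites whose tag is not listed, so levels of different genes may be lowered unequally. In bulk RNA, a change in the number of cells of a type and a change in RNA per cell cannot be told apart.

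Chemokines fall into families by the spacing of their first cysteines. CC chemokines such as CCL2, CCL3 and CCL4 mainly attract monocytes, macrophages and lymphocytes, while CXCL1 and CXCL2 attract neutrophils through CXCR2. Alveolar macrophages are known as an early source of several of these proteins when the lung is challenged with microbes.

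The tags that carry the findings are shown because the whole signal of a gene here rests on them. Each is written 5′ to 3′ on the strand of the transcript, with the NlaIII site in capitals and the deposited 21-base tag after it in lower case. Matches were made to GENCODE M21 transcripts on GRCm38.
Ccl6, main tag: CATGtggactccgcctgacacggtt
Ccl6, tag at the last site: CATGtatagccctggtttaccccaa
Ccl9, main tag: CATGggctttcaagactcttcagat
Cxcl16, only listed tag: CATGctgtcttgagacaaagtatcc
Pf4, only listed tag: CATGagcgtcgctgcggtgtttcga
Ccl3, only tag with counts: CATGacactctgcaaccaagtcttc
Ccl2, tag at the last site, listed at 0: CATGaatactaaaatttcttaaatg
Cxcl2, tag at the last site, listed at 0: CATGtatttttacaaataacaaaaa
Each of these 8 tags matched the transcripts of 1 gene. The main tag of Ccl6 lay on chromosome 11 at 83588671 to 83588695 (minus strand), in the 3′ UTR within exon 4 of 4, and its tag at the last site lay in the same exon at 83587916 to 83587940. The main tag of Ccl9 joined exon 2 to the exon after it (exon 2 of 4, chromosome 11, 83575932 to 83576379, minus strand), inside the coding sequence. The Cxcl16 tag lay at 70455270 to 70455294 on chromosome 11 (minus strand), in the 3′ UTR within exon 5 of 5. The Pf4 tag lay in exon 1 of 3, at 90772581 to 90772605 on chromosome 5 (plus strand), and its NlaIII site holds the start codon. It is the 1 NlaIII site of the reference transcript, 442 bases from the transcript's end.

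The chemokine with the most counts in every library was Ccl6, a rodent CC chemokine that acts through CCR1. It had 2007 and 1547 counts in day 21 metastasis replicates 1 and 2, and 1781 and 3778 counts in untreated replicates 1 and 2. That corresponds to 1145.5 and 1102 CPM in the day 21 metastasis libraries, against 874 and 1545 CPM in the untreated libraries. The groups overlapped, with both day 21 libraries lying between the 2 untreated ones. Ccl6 averaged 1124 ± 30.5 CPM in the day 21 libraries and 1209 ± 474 CPM in the untreated ones (SD, n = 2 each), a log2 change of -0.11 ± 0.55 (SE). By level it ranked at place 85 and 101 among all genes in the day 21 libraries and at place 102 and 70 in the untreated ones.

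Cxcl16 came next in every library. It encodes a transmembrane chemokine that can be shed from the cell surface, binds CXCR6 on T cells and natural killer T cells, and also acts as a scavenger receptor for oxidised lipoprotein. Its single tag had 653 and 525 counts in the day 21 metastasis libraries, against 34 and 25 in the untreated libraries. The levels were 373 and 374 CPM on day 21, against 16.7 and 10.2 CPM in untreated mice, and the groups were far apart. The 2 day 21 libraries differed by less than counting error, since the ratio of replicate 1 to replicate 2 was 0.996 with an exact 95% counting interval of 0.887 to 1.12. The mean was 373 ± 0.992 CPM in day 21 libraries and 13.5 ± 4.57 CPM in untreated ones (SD, n = 2 each), a log2 change of 4.79 ± 0.71 (SE). Cxcl16 stood at place 216 and 245 among all genes on day 21, against place 1582 and 2093 in untreated mice.

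The make-up of the chemokine counts within a library, which does not depend on how libraries are scaled, also differed between the groups. Ccl6 held 73.8% and 70.2% of the counts of the 10 genes in the day 21 metastasis libraries, against 97.9% and 98.7% in the untreated libraries. Cxcl16 held 24% (exact Clopper-Pearson 95% interval 22.4% to 25.7%) and 23.8% (22% to 25.6%) on day 21. In untreated mice it held 1.87% (1.30% to 2.60%) and 0.653% (0.423% to 0.963%). There were 3.07 and 2.95 Ccl6 counts per Cxcl16 count on day 21, against 52.4 and 151 in untreated mice. These intervals cover counting error only, since amplified tags without molecular identifiers are not independent molecules. In all, the 10 genes had 2720 and 2205 counts on day 21 and 1820 and 3826 counts in untreated mice, which is 0.152% and 0.135% of the day 21 libraries against 0.0927% and 0.174% of the untreated ones. The summed counts of the set thus overlapped between the groups.

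**Figure D1:**
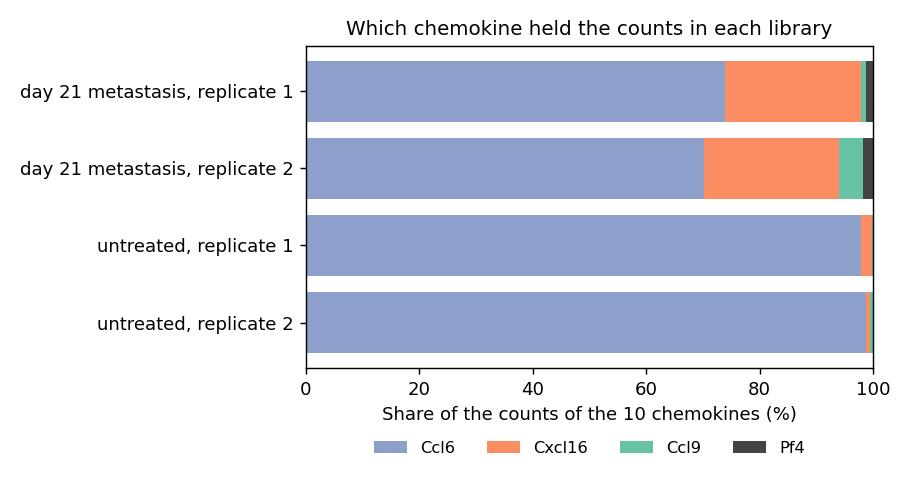
Share of the counts of the 10 chemokines (x axis, percent) held by Ccl6, Cxcl16, Ccl9 and Pf4 in each library (rows). The 2 counts of Ccl3 in day 21 metastasis replicate 2 are too few to draw. Cxcl16 takes 24% and 23.8% in the day 21 libraries, against 1.87% and 0.653% in the untreated ones.

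Pf4, platelet factor 4 or CXCL4, is a heparin-binding chemokine best known from platelet granules. It had 35 and 37 counts (20.0 and 26.4 CPM) in the day 21 metastasis libraries, against 0 and 4 counts (0 and 1.64 CPM) in the untreated libraries. Both day 21 libraries were above both untreated ones. Summed over a group, 72 counts stood against 4, a ratio of 25.6 per scaled library with an exact 95% counting interval of 9.57 to 96.4. That interval pools the 2 libraries of a group, covers counting error and not the spread between libraries, and leaves out tags read once. The mean was 23.2 ± 4.52 CPM on day 21, against 0.818 ± 1.16 CPM in untreated mice (SD, n = 2 each). The log2 change was 4.64 ± 0.997 (SE), and it rests on those 4 untreated counts. Markers of platelets and megakaryocytes were looked at beside it. Of 12 such genes, 8 are listed (Itga2b, Gp9, Gp1bb, Gp5, Itgb3, Treml1, Clec1b and Nrgn) and all 8 are listed at 0 in all 4 libraries. A transcript whose listed tag is not read would also be at 0.

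Ccl9, another rodent CC chemokine that acts through CCR1, had 25 and 94 counts in the day 21 metastasis libraries, against 5 and 19 in the untreated libraries. The levels were 14.3 and 67.0 CPM on day 21, against 2.45 and 7.77 CPM in untreated mice. The groups did not overlap, but libraries of 1 group were far apart, with replicate 2 at 4.69 times replicate 1 on day 21 and 3.17 times in untreated mice. The mean was 40.6 ± 37.3 CPM on day 21, against 5.11 ± 3.76 CPM in untreated mice (SD, n = 2 each), and the log2 change was 2.95 ± 0.86 (SE). It fell to 1.48 without day 21 metastasis replicate 2, and was 3.74 without day 21 metastasis replicate 1 and 4.04 without untreated replicate 2. Ccl9 did not pass edgeR's quasi-likelihood test with all 4 libraries, and passed without untreated replicate 2 (adjusted p = 0.00643) and with a replicate block (adjusted p = 0.0287). The summed level of the 8 listed neutrophil markers was also higher in replicate 2 of each group, at 75.9 and 282 CPM on day 21, against 9.32 and 159.9 CPM in untreated mice. Most of that was Camp, a granule antimicrobial peptide, at 69.1 and 251 CPM on day 21, against 9.32 and 140.3 CPM, and Mpo and Cxcr2 are listed at 0 in all 4 libraries. Their part in the Ccl9 values was not tested.

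**Figure D2:**
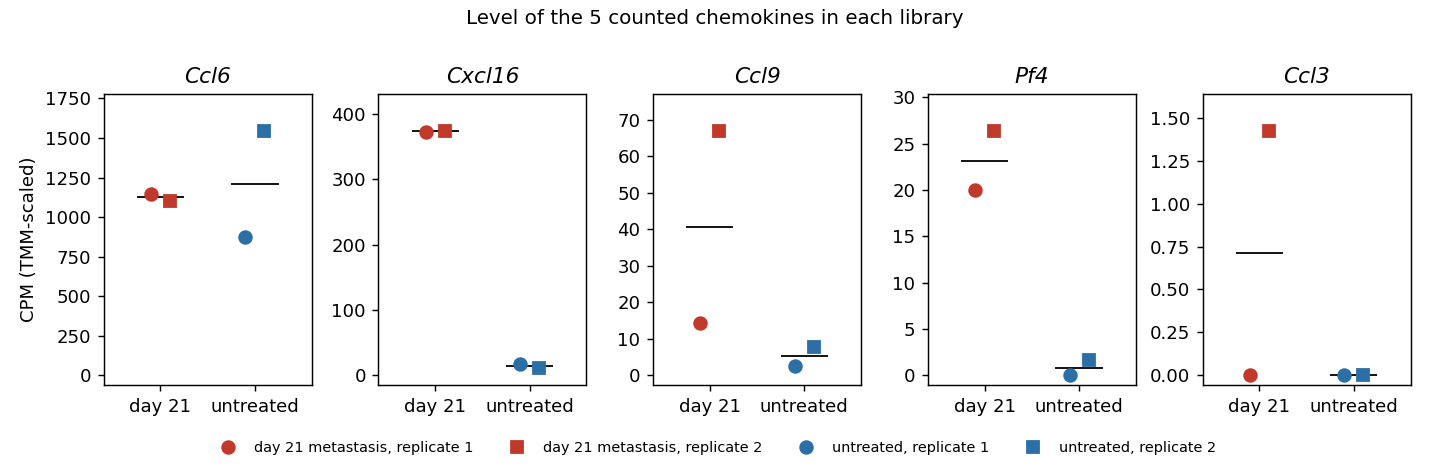
Level in TMM-scaled CPM (y axis, one scale per gene) of the 5 chemokines with counts, by group, with a point per library and a bar at the mean of 2 libraries. The Cxcl16 points of day 21 metastasis lie at 373 and 374 CPM, against 16.7 and 10.2 CPM in untreated mice, while those of Ccl6 overlap.

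The classical inflammatory chemokines were at or near 0. Ccl3, which encodes MIP-1α and attracts macrophages and T cells, had 0 and 2 counts in the day 21 metastasis libraries, against 0 and 0 in the untreated ones. Its 2 counts came from the fourth site from the 3′ end, in the coding sequence of exon 1 of 3, and its tag at the last site had none. Ccl2, the main ligand of CCR2 on monocytes, is listed at 0 for both of its tags in all 4 libraries. So are both tags of Ccl4 (MIP-1β, which attracts monocytes and T cells), the 1 tag of Cxcl1 and both tags of Cxcl2, the last a pair of CXCR2 ligands. For these 4 genes the tag of the NlaIII site nearest the 3′ end is among the listed ones, so the tag that the method is designed to read was one of those at 0.

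How low these genes were is limited by depth and by the deposited values. Counts of 1 do not occur in these tables, so a 0 can stand for a tag read once. For a gene with 1 listed tag, 4.74 counts is the largest level that would leave it at 0 or 1 reads with a probability of 5%. That is 2.71 and 3.38 CPM in the day 21 metastasis libraries and 2.33 and 1.94 CPM in the untreated ones. With 2 listed tags, as for Ccl2, Ccl4 and Cxcl2, and equal shares per tag, it is 5.69 counts, or 3.25 and 4.05 CPM on day 21 and 2.79 and 2.33 CPM in untreated mice. These limits take every transcript to give a read of a listed tag, which was not tested. Fabp4, a marker of alveolar macrophages, was itself at 0 in all 4 libraries. The limits also cover counting error only and treat tags as independent, although libraries of 1 group differed by more than counting error. Differences between groups below those levels were not detectable at this depth, and larger ones may not have been either. One further possible tag of Cxcl2, shared with Cxcl3, is deposited under Cxcl3, a related CXCR2 ligand, and had 2 and 0 counts on day 21 and 0 and 2 counts in untreated mice, so these reads can belong to either gene.

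The order of levels in each library followed from these values. It rests on listed tags, which cover 6 of 6 NlaIII sites of the reference transcript for Ccl6 and 1 of 1 for Pf4. They cover 1 of 8 sites for Cxcl16 and 4 of 10 for Ccl9. The tag at the last site is not listed for Cxcl16 or Ccl9, so their levels may be too low beside Ccl6. Over all transcripts of a gene, 6 of 10 possible tags are listed for Ccl6 and 1 of 2 for Pf4. Of the 3 Pf4 transcripts, 1 has no NlaIII site and could not be read, so Pf4 may be too low as well. On day 21, Ccl6 was above Cxcl16 in both libraries, and Cxcl16 above Ccl9 and Pf4. The last 2 changed places, with Pf4 above Ccl9 in replicate 1 (20.0 against 14.3 CPM) and below it in replicate 2 (26.4 against 67.0 CPM), so they do not differ beyond their spread. In untreated mice the order was Ccl6, Cxcl16, Ccl9 and Pf4 in both libraries. There the lowest level of Cxcl16 (10.2 CPM) was close to the highest level of Ccl9 (7.77 CPM).

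Some members that lie close together in the genome had unlike levels, and others had like ones. Ccl9, Ccl6, Ccl3 and Ccl4 lie within 91.8 kb of chromosome 11 (83572919 to 83664683), and levels there ran from 1102 and 1145.5 CPM for Ccl6 to 0 for Ccl4 in the day 21 libraries. Ccl9 and Ccl6 lie side by side within 20.2 kb, and both had counts in all 4 libraries. Ccl3 and Ccl4, also close together, were at or near 0. On chromosome 5, Pf4, Cxcl1 and Cxcl2 lie within 133.5 kb (90772435 to 90905938), and Pf4 alone of the 3 had counts. Cxcl1 (90891241 to 90893115) and Cxcl2 (90903871 to 90905938) were both at 0. A link of position with level was not tested. Ccl17, on chromosome 8 at 94810453 to 94812036, has 6 NlaIII sites in its transcript and none of their tags is listed.

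The site at which a chemokine was read varied among the members. The main tag of Ccl6 sits at the fifth of 6 sites from the 3′ end of the reference transcript, 814 bases before its end, and held 80.7% of all Ccl6 counts. The tag at the last site, 59 bases before the end, held 16.3%, and the other 4 tags shared the rest. One of those 4, with 27 counts in all, also matches Slc17a4. The main tag held 79.9% and 86.4% in the day 21 metastasis libraries, against 73.4% and 82.2% in the untreated ones. The tag at the last site held 16.5% (exact Clopper-Pearson 95% interval 14.9% to 18.2%) and 10.8% (9.29% to 12.4%) on day 21, against 23.9% (21.9% to 25.9%) and 14.9% (13.8% to 16.1%) in untreated mice. In each group replicate 2 had the smaller share at the last site, and the groups overlapped. Over all genes, 84.1% and 77.4% of day 21 counts, against 78.1% and 72.3% of untreated counts, came from the last site of a transcript of the gene, again lower in replicate 2.

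For Cxcl16 and Ccl9 the tag at the last site of the reference transcript is not listed, so counts there could not appear. The Cxcl16 tag is at the third of 8 sites from the 3′ end of its reference transcript, 1312 bases before its end. The same tag is at the last site of the shorter, intron-retaining transcript of the gene, 105 bases before that end. The Ccl9 main tag, at the seventh of 10 sites, held 92.0% and 92.6% of the Ccl9 counts on day 21, against 100% and 78.9% in untreated mice. The same tag is at the last site of a shorter processed transcript of Ccl9, 292 bases before that end. The untreated shares rest on 5 and 19 counts, with exact 95% intervals of 47.8% to 100% and 54.4% to 93.9%. Sites with no listed tag were not analysed here.

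**Figure D3:**
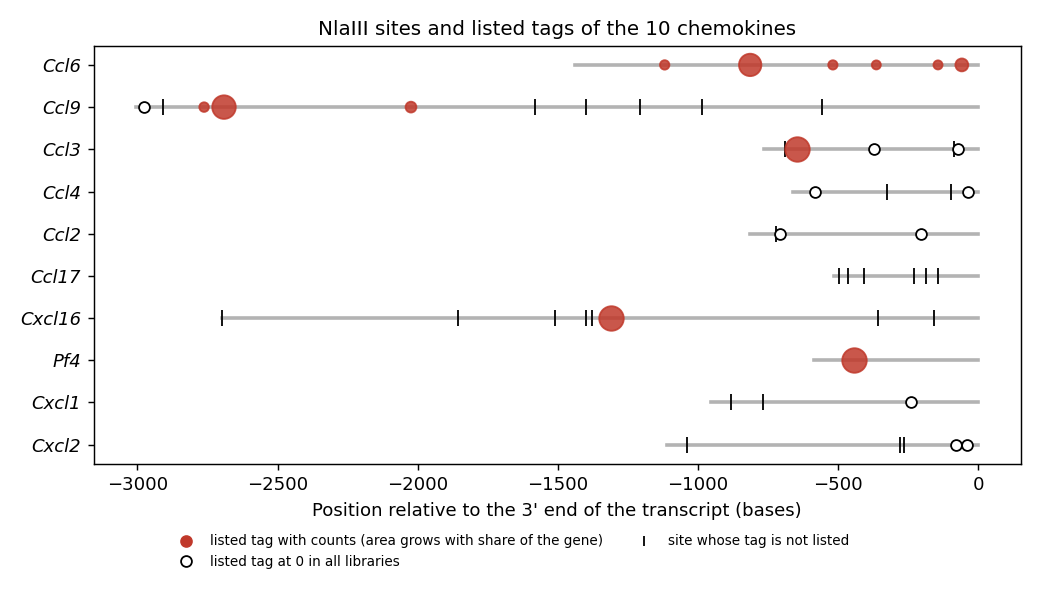
NlaIII sites along the first coding transcript of each chemokine, placed by distance in bases from its 3′ end (x axis). Filled points are listed tags with counts, with an area that grows with the share of the gene's counts, open points are listed tags at 0, and ticks are sites whose tag is not listed. The tags with most counts of Ccl6, Ccl9 and Cxcl16 lie 814, 2691 and 1312 bases before the end.

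Set among all genes tested, 4 of the 10 members had enough counts to be tested (Ccl6, Cxcl16, Ccl9 and Pf4). In edgeR's quasi-likelihood test across 2993 genes, Cxcl16 and Pf4 were higher on day 21 and none was lower (Benjamini-Hochberg adjusted p under 0.05). Of all genes tested 0.668% were higher, 0.0668% lower and 0.735% either by that rule. In 3 of the 4 members both day 21 libraries were above both untreated ones, as in 15.2% of all genes tested, and in 31.2% the groups did not overlap in either direction. The median log2 change of the 4 was 3.79, against -0.07 over all genes. Since the members were named with this comparison known, and since a gene near 0 in untreated mice passes the count filter only if it is high on day 21, these counts describe the set and nothing is read from them. The call of Pf4 was lost with total-count scaling (adjusted p = 0.194), and both calls were lost without untreated replicate 1 (adjusted p = 0.0701 for Cxcl16 and 0.362 for Pf4).

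**Figure D4:**
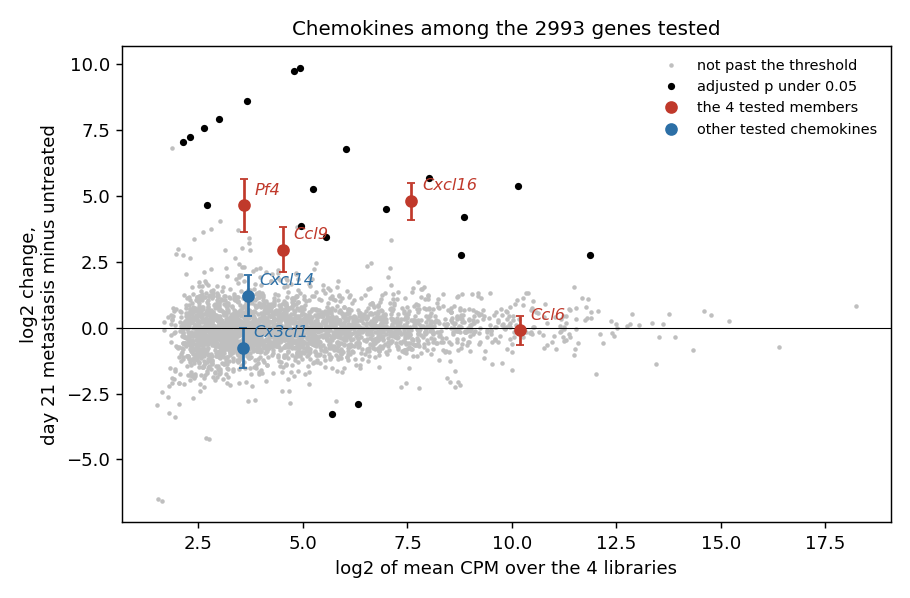
Log2 change, day 21 metastasis minus untreated (y axis), against log2 of the mean CPM over the 4 libraries (x axis) for the 2993 genes tested. Red points are the 4 tested members and blue points the other tested chemokines, with SE bars. Cxcl16, Pf4 and Ccl9 lie at 4.79, 4.64 and 2.95, and Ccl6 lies at -0.11.

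Chemokine genes outside the set had low counts or none. Of 28 other chemokine ligands, 8 are listed and 4 had counts (Cxcl14, Cx3cl1, Ccl5 and Cxcl3), while Ccl7, Ccl27a, Cxcl9 and Cxcl12 are listed at 0 in all libraries. Cxcl14, a chemokine of epithelia and other tissues, was at 15.4 and 20.7 CPM in the day 21 metastasis libraries, against 3.93 and 11.4 CPM in the untreated ones. Cx3cl1, the transmembrane chemokine fractalkine, was at 10.8 and 6.41 CPM, against 17.2 and 12.7 CPM. Ccl5, also called RANTES, had 13 and 8 counts, against 0 and 6, all in a tag at its start codon, and was below the count filter. Of the 2 tested, 0 passed edgeR's quasi-likelihood test in either direction, 0 had an unadjusted p under 0.05, and 0 passed DESeq2 or limma-voom. The log2 change was 1.21 ± 0.77 (SE) for Cxcl14 and -0.77 ± 0.75 for Cx3cl1.

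Receptors for these ligands were nearly absent from the counts. Of 23 chemokine receptor genes, 11 are listed, 5 had counts and 6 are listed at 0 (Ccr3, Ccr9, Cxcr2, Ackr1, Ackr3 and Ackr4). Cxcr6, the receptor of Cxcl16, is not listed and was not analysed here. Ccrl2, a chemerin-binding receptor that does not signal like other chemokine receptors, was the 1 tested gene, at 7.99 and 9.26 CPM on day 21, against 4.91 and 5.72 CPM in untreated mice. It did not pass edgeR's quasi-likelihood test, with an unadjusted p of 0.403, and 0 receptors passed DESeq2 or limma-voom. Ccr1, the receptor of Ccl3, Ccl6 and Ccl9, had 0 and 7 counts on day 21, against 4 and 10 in untreated mice. Ccr2, the receptor of Ccl2, had 2 and 2 counts on day 21, against 0 and 0.

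Proteases that cut chemokines, or release them from the membrane, were read beside Cxcl16. Of 10 such genes 9 are listed and 4 were tested, and 1 rose while 0 fell, where 0.668% of all genes tested were higher and 0.0668% lower. It was Mmp14, a membrane-bound matrix metalloproteinase, at 158 and 101 CPM in the day 21 libraries, against 1.47 and 0.818 CPM in the untreated ones (adjusted p = 3.95e-05, edgeR's quasi-likelihood test). With 3 and 2 untreated counts, it passed the count filter only through day 21. Mmp14 did not pass limma-voom, and 0 genes of any kind passed without untreated replicate 1. Ctsl, the lysosomal protease cathepsin L, was at 32.5 and 36.3 CPM, against 5.40 and 13.9 CPM, and did not pass the edgeR test (unadjusted p = 0.0224, adjusted p = 0.684). Mmp12, the macrophage elastase, was at 12.6 and 10.7 CPM, against 7.85 and 5.32 CPM, and did not pass either. Adam10, the main protease that sheds Cxcl16 from resting cells, was at 4.57 and 3.56 CPM, against 6.87 and 5.72 CPM, with a log2 change of -0.61 ± 0.91 (SE). Adam17, which sheds many membrane proteins on stimulation, had 4 and 0 counts, against 5 and 4. Adam17 was named after its values were seen.

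The pathway that switches on Ccl2, Ccl3, Cxcl1 and Cxcl2 in stimulated macrophages runs from Toll-like receptors to the transcription factor NF-κB. Of 33 genes of that pathway, 26 are listed, 10 were tested and 0 passed in either direction with edgeR's quasi-likelihood test, DESeq2 or limma-voom. None had an unadjusted p under 0.05, and the median log2 change was 0.28. Tlr2, a receptor for bacterial lipopeptides, was the most abundant, at 18.8 and 56.3 CPM on day 21, against 15.2 and 46.2 CPM in untreated mice. Ticam2, an adaptor of TLR4, was at 37.7 and 38.5 CPM, against 31.4 and 15.1 CPM. Tnip1, a restraining protein of the pathway, was at 15.4 and 15.7 CPM, against 26.0 and 9.0 CPM. Myd88, an adaptor of most of these receptors, was at 5.71 and 14.3 CPM, against 6.38 and 12.3 CPM. The day 21 libraries lay above the untreated ones for Ticam2, and the groups overlapped for Tlr2, Tnip1 and Myd88.

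Among 15 macrophage cytokines, 7 are listed, 3 were tested and 0 passed with any of the same tests or at an unadjusted p under 0.05. Il18, an interleukin of the inflammasome pathway, was at 101 and 169.6 CPM on day 21, against 114.8 and 233 CPM in untreated mice. Tgfb1, transforming growth factor beta, was at 18.8 and 3.56 CPM, against 20.1 and 16.8 CPM, and Il1rn, the antagonist of the interleukin-1 receptor, was between 5.70 and 5.89 CPM in all 4 libraries.

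The genes whose levels over the 4 libraries were most like each member were found by Euclidean distance of log2(CPM + 1), centred per gene, among 2002 genes with a mean of at least 10 CPM. For Cxcl16 these were Ms4a7, a macrophage membrane protein (distance 0.367), Fcgr2b, the inhibitory Fc receptor (0.535), and Cd63, a tetraspanin of lysosomes (1.11). Ms4a7 was at 242 and 244 CPM on day 21, against 14.7 and 6.95 CPM in untreated mice. For Pf4 they were Gfm2, a mitochondrial translation factor (1.06), Pla2g7, the platelet-activating factor acetylhydrolase (1.08), and Fcgr2b (1.28). For Ccl9 they were Hmox1, haem oxygenase 1 (0.269), Trem2, a lipid-sensing receptor (0.586), and the clock gene Per1 (0.797). Hmox1 was at 8.56 and 39.2 CPM on day 21, against 0.982 and 3.27 CPM in untreated mice, which is the same order of libraries as for Ccl9. For Ccl6 they were Atp5j (0.0761), Nudt21 (0.121) and Ndufa11 (0.125), with Atp5j at 23.4 and 23.5 CPM on day 21, against 18.6 and 34.3 CPM. With 4 libraries such distances are a description.

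Markers of cell types were compared with the label and with the chemokines. All 17 alveolar macrophage markers are listed and 16 had counts, with Fabp4 at 0. They summed to 2876 and 5280 CPM in the day 21 metastasis libraries and 2311 and 4694 CPM in the untreated ones. Of 14 tested, 0 passed edgeR's quasi-likelihood test, DESeq2 or limma-voom. At an unadjusted p under 0.05 in the edgeR test, 2 were higher (Chil3 and Fabp5) and 2 lower (Krt79 and Plet1). Among all 2993 genes tested, 170 were under 0.05 in either direction. Of the 14 tested, 5 had a positive log2 change and 9 a negative one. Cd9, Chil3, Ear2 and Krt79 were the most abundant of them. Cd9 was at 1160 and 1406 CPM on day 21, against 1102 and 1864 CPM in untreated mice. Chil3 was at 1047 and 2777 CPM, against 329 and 1194 CPM. Ear2 was at 304 and 667 CPM, against 232 and 829 CPM, and Krt79 at 90.7 and 20.7 CPM, against 329 and 210 CPM. Siglecf, a lectin of alveolar macrophages, was at 21.1 and 20.0 CPM on day 21, against 27.5 and 37.2 CPM in untreated mice (named after its values were seen).

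Markers of monocytes and interstitial macrophages moved with Cxcl16, Pf4 and Ccl9. Of 15 listed, they summed to 2201 and 3331 CPM on day 21, against 68.7 and 135.3 CPM in untreated mice, with 5 of 8 tested members higher (C1qb, C1qc, Apoe, Ms4a7 and Trem2) and 0 lower in edgeR's quasi-likelihood test, and 3 called with limma-voom. Of all genes tested 0.668% were higher in the edgeR test, and 0 genes were called without untreated replicate 1. C1qb and C1qc had 0 counts in both untreated libraries. They passed the count filter only through day 21 and could come out only as higher. Trem2, with 10 and 26 untreated counts, reached the level of the filter in untreated replicate 2 but not in replicate 1. It thus also needed the day 21 libraries to be tested. Apoe alone reached 1733 and 2716 CPM, against 28.5 and 78.5 CPM, and Lyve1 and Folr2 are listed at 0 in all libraries. The part of these markers in the chemokine values was not tested. Dendritic cell markers summed to 12 and 32.1 CPM on day 21, against 5.40 and 13.1 CPM, all from Irf8. Lung epithelial markers summed to 19.4 and 4.99 CPM, against 53.5 and 29.0 CPM. Nearly all of that was Epcam (19.4 and 4.99 CPM, against 53.5 and 27.0 CPM), with Sftpa1, Cdh1, Krt8, Krt18 and Foxj1 at 0. T and NK cell markers summed to 14.8 and 12.8 CPM, against 63.3 and 129.6 CPM, all of it Cd2, with Cd3d, Thy1, Nkg7 and Klrb1c at 0. Cd2 did not pass edgeR's quasi-likelihood test (adjusted p = 0.0691) or limma-voom, but passed DESeq2. B cell, endothelial, fibroblast and hepatocyte markers stayed under 3 CPM in every library, with Afp, the alpha-fetoprotein of fetal liver and hepatomas, the 1 listed hepatocyte gene.

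**Figure D5:**
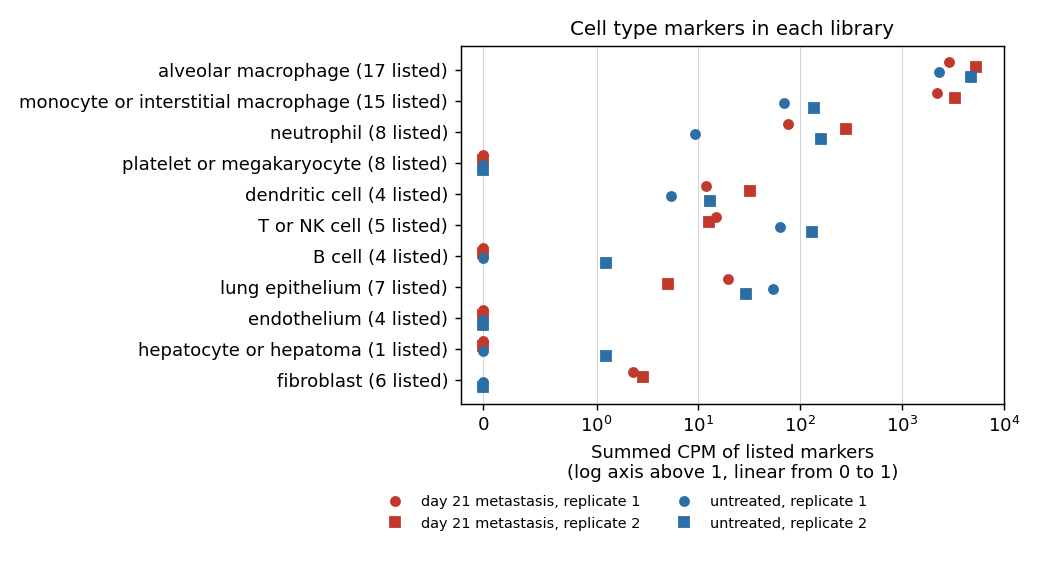
Summed CPM of the listed markers of each cell type (x axis, logarithmic above 1 and linear from 0 to 1) in each library, with the number of listed markers beside each name. Monocyte and interstitial macrophage markers lie at 2201 and 3331 CPM in the day 21 metastasis libraries, against 68.7 and 135.3 CPM in the untreated ones, and platelet markers at 0 in all 4.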

How the data were processed

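The deposited values are raw tag counts, 1 count per 21-base tag with a symbol and a RefSeq accession, per the file headers. The labels' protocols give NlaIII digestion, release of tags with EcoP15I and PCR; the submitters' processing notes give build mm9, and the matching tool is not given in the sources used here. All 4 tables share a list of 30627 tags. Genes were named from the accession (29346 tags), the symbol (429), an older symbol (115) or the deposited symbol (737), and tags were summed per gene. Tags were matched after CATG to GENCODE M21 transcripts (GRCm38), for coordinates and sites.

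edgeR 4.0.16 (R 4.3.3) was run with the quasi-likelihood test, TMM, filterByExpr (minimum count 10, total 15) and Benjamini-Hochberg adjustment over 2993 genes, with group as the only term. The SE was taken from the change and its F value. CPM use the TMM-scaled total of the tested genes. DESeq2 1.42.0, limma-voom (limma 3.58.1), other scalings, no filter, a replicate term, other ways of summing tags and leaving out each library were alternatives. Replicate libraries differed beyond counting error (chi-square over degrees of freedom 44.1 in day 21 metastasis, 59.4 in untreated) and counted as 1 replicate each.

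The members and gene lists were chosen with earlier results of these data known. All members were named, with each called gene of the other lists or otherwise up to 4 of the most abundant.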

Additional observations from a re-analysis of the deposited data

How the results depend on the processing

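With all 4 libraries 20 genes were higher and 2 lower, and 2 members were called. By setting, the genes higher and lower were 20 and 0 with upper-quartile scaling, 9 and 0 with total counts alone, 36 and 5 with no filter, 9 and 0 with the main tag of each gene, 21 and 4 with DESeq2, and 9 and 3 with limma-voom. Members called fell to 1 with total counts alone, with the main tag and with limma-voom, each time by the loss of Pf4. With 1 library left out, genes higher ranged from 0 to 63, genes lower from 0 to 18 and members called from 0 to 3. The count of 0 arose without untreated replicate 1 (smallest adjusted p 0.0647 in edgeR's quasi-likelihood test, 137 genes at an unadjusted p under 0.05). A group left with 1 library is assumed to vary like the other. Total counts alone moved the median log2 change of all genes to -0.29, from -0.07. The cause of these differences was not tested.

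Over the 13 alternatives the log2 change of Cxcl16 ranged from 4.50 to 5.19. That of Pf4 ranged from 3.77, without untreated replicate 1, to 8.34, without untreated replicate 2, where no untreated count is left and the fitted value is no bound. Ccl6 changed sign without untreated replicate 2 (0.39) and was at -0.45 without untreated replicate 1, neither called. No alternative called another chemokine ligand or a receptor. The replicate numbers are shared between the groups but are not said to mark a shared mouse, batch or day. With a replicate block 31 genes were higher and 9 lower, and Ccl9 passed (log2 change 2.88, adjusted p = 0.0287); differences between replicates 1 and 2 correlated between the groups over genes (r = 0.54).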
